A study of Homo sapiens and Mus musculus with 74 samples.

Results

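The comparison described here is brain RNA-seq of Rpl41 knockout (KO) mice against wild-type (WT) mice, with 3 libraries per genotype, or 6 of the 74 samples in the series. The KO mice (Rpl41-/-) came from C57BL/6J zygotes that had received Cas9 ribonucleoproteins directed at Rpl41, which removed its whole coding sequence, and the brains were those of males 10 weeks old. The deletion is germline, so every cell of the brain and of the body carries it, and the study describes KO mice as small, with light brains. The labels give the genotype, the tissue and a replicate number and do not say that replicates are separate animals, so the p-values below measure the spread between these libraries. Each library is poly(A)-selected RNA of brain tissue, a mixture of neurons, glia, vessels and blood, and fewer cells of a type and less RNA per cell cannot be told apart in it. Of 142604 transcripts counted, 89237 had enough reads to be tested, and each gene is shown by 1 transcript, the one with the longest annotated protein, which gave 15731 coding and 5931 noncoding genes.

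Rpl41 encodes a very short and basic ribosomal protein that sits at the interface between both subunits. It is named for the large subunit, where it was first placed, and is now counted as part of the small one. Ribosomal protein mRNAs are among the most abundant in a cell and tend to be made in matched amounts. Loss of a ribosomal protein can set off the p53 pathway, and stalled or colliding ribosomes can set off quality control and the integrated stress response, so genes of these pathways were described beside markers of brain cell types and regions. Ribosomal protein genes have also left many processed copies in the genome, DNA copies of their mRNAs that lack introns and can be too alike for short reads to separate.

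The Rpl41 coding sequence (GENCODE M21, GRCm38, chromosome 10, minus strand, 128548387 to 128548960) has 78 bases over 3 exons and encodes 25 amino acids. It is printed because the copies of it carry the other calls of the comparison. Capitals mark the start and stop codons.
Rpl41: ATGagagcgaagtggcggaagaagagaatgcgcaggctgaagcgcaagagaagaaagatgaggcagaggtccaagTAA
Gm3699: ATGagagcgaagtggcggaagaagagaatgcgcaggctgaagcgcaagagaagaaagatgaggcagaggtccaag
Gm3699 is annotated as a processed pseudogene (chromosome 10, minus strand, 43456427 to 43456501), and its annotated 75 bases hold the Rpl41 coding sequence up to the stop codon with 0 mismatches. The processed pseudogenes Gm10180 (chromosome 9, minus strand, 25101404 to 25101481) and Gm10736 (chromosome 13, minus strand, 111593534 to 111593611) hold all 78 bases with 0 mismatches and nothing else. Gm10076 is annotated as a long intergenic noncoding RNA (chromosome 14, plus strand, 105681828 to 105682211), holds the same 78 bases from 105681869 to 105681946, and shares 381 of its 384 bases with Rpl41 transcripts in stretches of 30 or more identical bases. A search of all annotated mouse transcripts for these 75 bases found 8 transcripts of 5 genes, 3 of them isoforms of Rpl41 and the other 5 from the 4 genes above.

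Rpl41 fell to near absence in KO brain, and the other called genes were those that hold its sequence. Its transcript with the longest protein, which stands for the gene here, is not among the 3 isoforms that hold the 75 bases searched above. It had 11532, 12199 and 8981 reads in the WT libraries, in the order 1 to 3, and 7, 12 and 6 in the KO libraries. As CPM (reads relative to the library's total after TMM scaling), these were 127, 129 and 91.2 in WT and 0.0531, 0.153 and 0.0760 in KO, so the lowest WT library lay 595-fold above the highest KO library. On the log2 scale KO lay 10.35 below WT (fold change -10.35 with an approximate standard error of 0.33, derived from the test statistic). Adjusted over every tested transcript by the Benjamini-Hochberg method, p was 1.0e-05 in the quasi-likelihood test of edgeR. Ribosome footprints of the same transcript (Ribo-seq of brain, in the same count table) numbered 70, 37 and 76 in WT and 2, 4 and 0 in KO. The 3 isoforms that hold the 75 bases each had a log2 fold change of -10.24 in RNA-seq.

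In all, 12 of 89237 transcripts passed an adjusted p of 0.05 (0.0134%), of which 0 were higher in KO (0.0%) and 12 were lower (0.0134%). They comprise 7 transcripts of Rpl41, 2 of Gm10076 and 1 each of Gm10736, Gm10180 and Gm3699, and all 8 transcripts that hold the 75 bases are among them. With 1 transcript per gene, 1 of 15731 coding genes passed (0.00636%) and 5 of 21662 genes (0.0231%). Gm10076 had 3668, 3752 and 2712 reads in WT and 8, 12 and 2 in KO (log2 fold change -8.85, standard error 0.38). Gm10736 had 1450, 1414 and 1229 reads against 4, 8 and 0, and Gm10180 had 695, 779 and 612 against 2, 8 and 1. Gm3699 had 356, 261 and 248 against 3, 7 and 0, with an adjusted p of 0.0278 from edgeR. Its call was lost with library size alone (adjusted p = 0.0932 from edgeR), with the replicate number as a block (0.273), without WT library 1 (0.218) and without WT library 2 (0.362). In each of these genes WT and KO libraries were far apart, and some KO libraries held 3 reads or fewer, so the fitted size of the fall is not precise. The study's alignment allowed reads to map to several places, and a fall of the copies cannot be told apart from the fall of Rpl41.

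**Figure D1:**
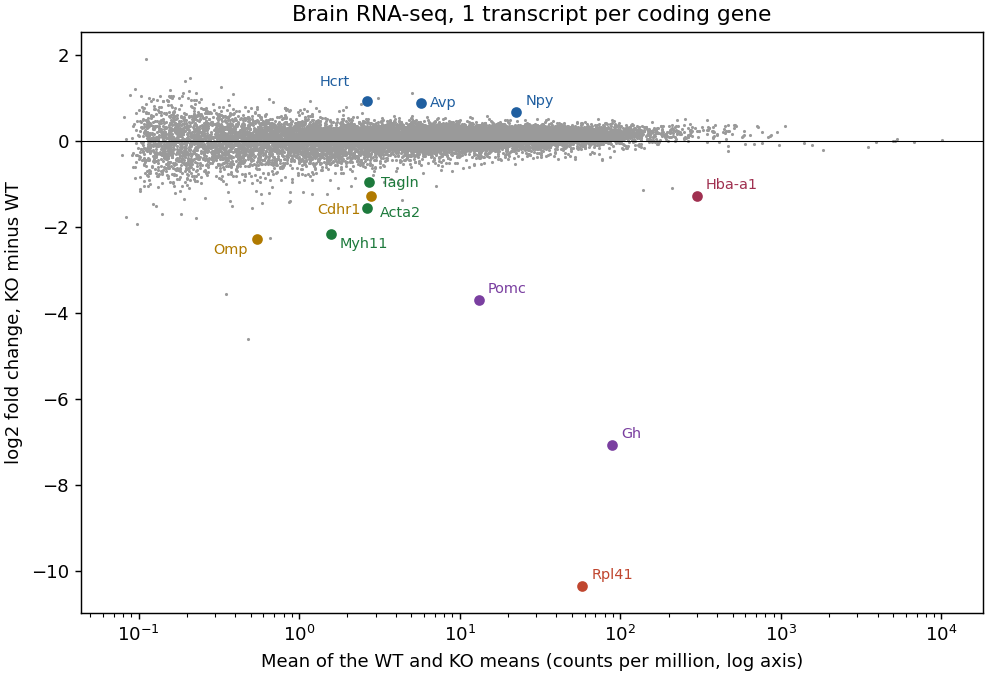
Fold change of each coding gene against its level in brain RNA-seq. Each point is 1 gene by its representative transcript, the horizontal axis is the mean CPM on a log axis, and the vertical axis is the log2 fold change of KO against WT. Rpl41 stands alone at -10.35, Gh (-7.06) and Pomc (-3.70) rest on WT library 3, and nearly all other genes lie close to 0.

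Outside these 5 genes, the smallest adjusted p of any transcript was 0.325, and 3087 transcripts had an unadjusted p under 0.05. The genes described below therefore did not pass the test, and their values are given as measurements. The log2 fold changes of coding genes were small. 95.5% lay within 0.5 of 0, 23 genes were above 1 and 55 below -1, and the median standard error of a gene was 0.16. The median over coding genes was 0.10 on the log2 scale, against which the medians of gene lists below are to be read. KO libraries all lay above WT libraries in 1604 of 15731 coding genes (10.2%) and all below in 512 (3.25%). With counts scaled by library size alone these were 1291 and 880, and with counts summed per gene 1096 and 948, so the excess of genes above WT depends on the scaling and on the transcript that stands for a gene. Among the 12821 coding genes with a mean of at least 1 CPM, 1419 were above (11.1%) and 355 below (2.77%). An unadjusted p under 0.05 went with a positive fold change in 564 coding genes (3.59%) and with a negative one in 222 (1.41%).

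The libraries differed among themselves in a way that crossed the genotypes. Their counts, summed over all transcripts, ran from 84433838 to 123745890, and a read that falls on several isoforms can enter these sums more than once. Correlations of log2 CPM between libraries over coding genes ran from 0.988 to 0.995 within WT, 0.990 to 0.997 within KO and 0.983 to 0.994 between genotypes. The first principal component took 61.8% of the variance and placed WT library 3 (27.7) and KO library 1 (14.0) at one end, KO libraries 2 (-21.5) and 3 (-16.9) at the other, and WT libraries 1 (-0.15) and 2 (-3.19) between them. Transcript length moved with this order. Coding genes were put in 10 classes of equal size by transcript length. From the shortest to the longest class, the median deviation from a gene's own mean rose by 0.32 in WT library 3 and by 0.18 in KO library 1, and it dropped by 0.27 in KO library 2 and by 0.13 in KO library 3, while WT libraries 1 and 2 gave 0.07 and -0.15. The share of counts on mitochondrially encoded transcripts was lowest in WT library 3 (4.00%) and KO library 1 (4.33%) and lay between 5.32% and 6.34% in the others. Its part in any result below was not tested, and lengths are given where they bear on a list.

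**Figure D2:**
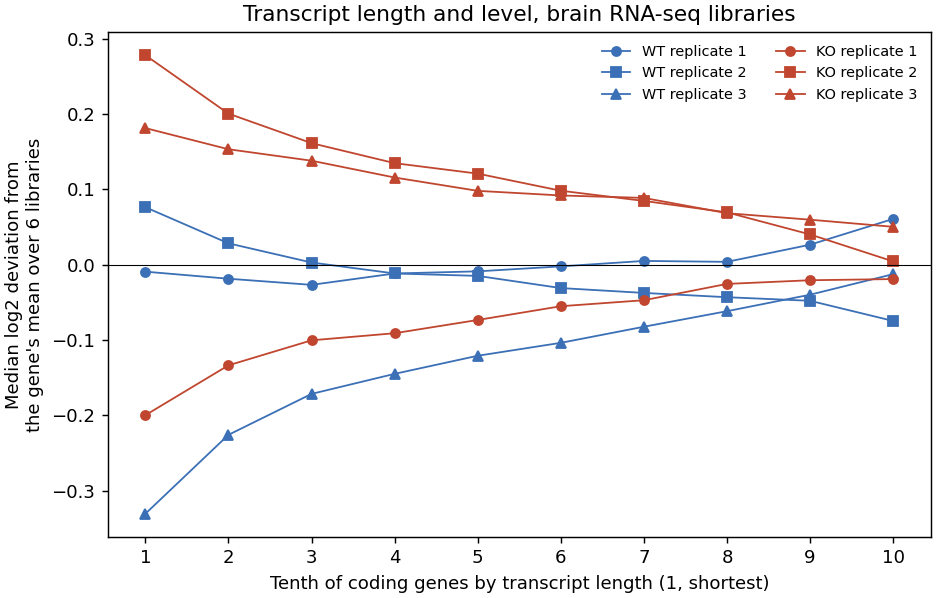
Level of coding genes by transcript length in each brain RNA-seq library. The horizontal axis gives the length class of genes, from shortest to longest, the vertical axis the median log2 deviation of those genes from their own mean over the 6 libraries, and each line is 1 library. WT library 3 and KO library 1 climb with length, KO libraries 2 and 3 go down, and the lines are not sorted by genotype.

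The labelled tissue was borne out by its markers, with all 11 neuronal genes tested present in every library, among them Snap25, a protein of synaptic vesicle fusion, at 724 to 1077 CPM. Y-linked genes were present in all 6 libraries, with the demethylase gene Kdm5d at 5.52 to 6.98 CPM.

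Genes next to Rpl41 on chromosome 10 did not pass the test. Of the 5 nearest coding genes tested on each side, 10 in all, Zc3h10, which encodes a zinc finger protein, was the single one whose groups did not overlap, with KO above WT as in 10.2% of coding genes, so 1 of 10 is near the background. It had 4.51, 4.30 and 4.09 CPM in WT and 5.12, 6.15 and 6.47 in KO (log2 fold change 0.46, standard error 0.14, or 0.23 with counts summed per gene). The myosin light chain gene Myl6, the neuregulin receptor gene Erbb3 and the ribosomal protein gene Rps26 overlapped between genotypes, at log2 fold changes of 0.27, 0.14 and 0.13.

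Among the other ribosomal protein genes, no gene passed the test and no gene separated the genotypes in RNA-seq. In the list of genes named for the large subunit, 39 of 46 genes had a positive fold change, 0 of 46 had KO libraries all above WT, and Rpl41 was the single one with KO libraries all below. The median was 0.11, near the 0.10 of all coding genes, and without Rpl41 the values ran from -0.06 to 0.30. For the small subunit, 30 of 31 were positive with a median of 0.09, and 0 of 31 separated the genotypes. Summed over the large subunit list, the level was 4530, 4640 and 3343 CPM in WT and 3329, 5164 and 4600 in KO, so the low libraries were WT library 3 and KO library 1, as for short transcripts in general (median length 847 nt). Rpl27 had the highest fold change, with 48.1, 50.0 and 34.1 CPM in WT and 35.2, 69.7 and 57.5 in KO. Rps27l, a paralog of the small subunit gene Rps27 and a known p53 target, had 5.65, 5.60 and 3.48 CPM in WT and 3.86, 7.13 and 6.65 in KO (log2 fold change 0.26, standard error 0.27). Ribo-seq differed, with KO footprints all below WT in 11 of 46 large subunit genes, Rpl41 included, and in 13 of 31 small subunit genes. Over all coding genes the share was 11.3%, and 0 genes of either list had KO footprints all above WT (7.91%).

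The factors that move the ribosome along the mRNA stayed near the median of all genes. Of 13 elongation genes, 9 had a positive fold change (median 0.10), and 1 had KO libraries all above WT (10.2% of coding genes). Eef1a1, which delivers aminoacyl-tRNA, had 565 to 654 CPM in WT and 536 to 632 in KO. Genes of ribosome collision and quality control had a median of -0.03, with 12 of 18 negative and 3 of 18 with KO libraries all below WT (3.25% of coding genes). These 3 were Zfp598, the ubiquitin ligase that senses collided ribosomes, at 17.4, 14.8 and 16.7 CPM in WT and 11.6, 14.2 and 14.2 in KO, Gtpbp2, a rescue GTPase, at 20.8, 16.7 and 18.8 against 12.9, 14.3 and 16.6, and Map3k20, the collision-sensing kinase, at 0.315 CPM or less in every library (log2 fold change -0.58, or -0.08 with counts summed per gene). In both Zfp598 and Gtpbp2 the lowest WT and the highest KO library were nearly level. Nemf, which extends stalled chains, had the highest fold change of this list (0.37, standard error 0.17) with overlapping groups.

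Stress pathways gave no gene past the test. Integrated stress response genes had a median of 0.10. In 1 of 21 the genotypes were apart, with KO above WT as in 10.2% of all coding genes. It was Ppp1r15a, which encodes a phosphatase subunit for eIF2 alpha, at 5.91, 6.07 and 6.35 CPM in WT and 6.38, 7.43 and 7.09 in KO. The transcription factor gene Atf4 had 60.1, 67.7 and 54.1 CPM in WT and 59.4, 83.2 and 73.3 in KO, and Ddit3 had 11.4, 10.5 and 8.25 against 9.64, 15.6 and 14.0. Both were high in KO libraries 2 and 3 and not in KO library 1. Unfolded protein response genes had a median of 0.09 and p53 targets of 0.11, with 0 of 14 and 0 of 12 separating the genotypes, and Cdkn1a, the p53-induced cell cycle inhibitor, had 7.46 to 12.3 CPM in WT and 6.44 to 14.3 in KO. All 10 heat shock and cold-shock genes were positive (median 0.21, 0 of 10 separating), led by the cytosolic chaperone gene Hsp90aa1 at 336, 279 and 244 CPM in WT and 297, 458 and 455 in KO. Immediate early genes, which mark recent neuronal activity, had a median of 0.01, and Fos had 14.2, 9.09 and 10.7 CPM in WT and 14.5, 13.9 and 8.72 in KO.

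**Figure D3:**
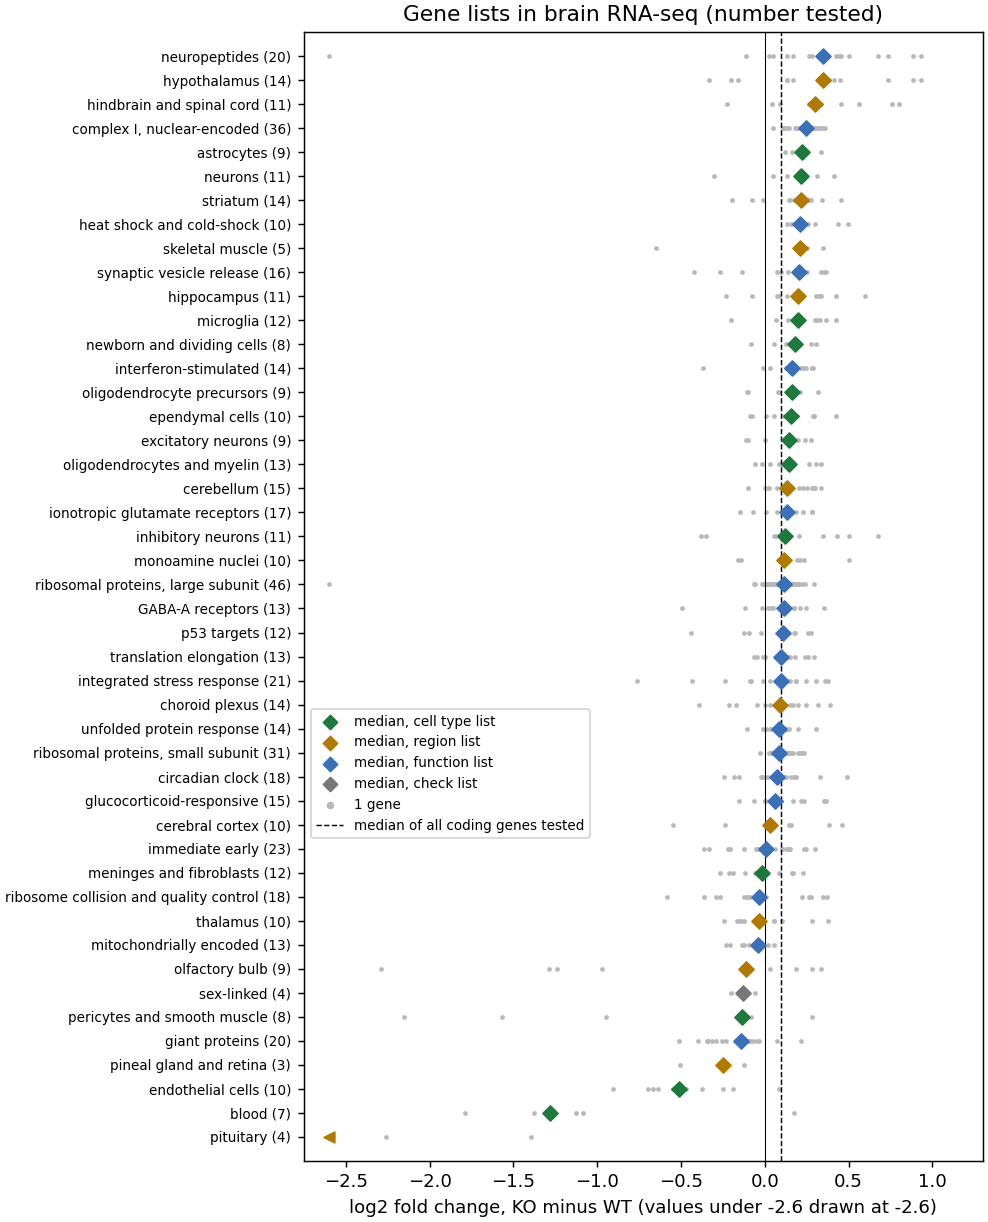
Fold changes of the 46 gene lists in brain RNA-seq. Each grey point is 1 tested gene on the log2 scale, the diamond is the median of its list coloured by the kind of list, the dashed line is the median of all coding genes (0.10), and values under -2.6 are drawn at -2.6, so the pituitary median of -2.98 is shown as a triangle. Blood, endothelial and pituitary lists lie farthest to the left and the neuropeptide and hypothalamus lists farthest to the right.

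Of the genes listed for pericytes and smooth muscle, 3 contractile genes, grouped after their values were seen, had KO libraries all below WT, and none passed the test. Myh11 had the lowest fold change in any of the cell type lists. Myh11, the smooth muscle myosin heavy chain, had 3.08, 2.51 and 2.15 CPM in WT and 0.826, 0.434 and 0.456 in KO. All 3 KO libraries lay well below WT, and the log2 fold change was -2.15 (standard error 0.30, unadjusted p = 7.7e-05, adjusted p = 0.459 from edgeR). Acta2, smooth muscle actin, had 5.49, 4.16 and 2.32 CPM in WT and 1.64, 1.16 and 1.22 in KO (log2 fold change -1.57, standard error 0.32). Tagln, an actin-binding protein of the same cells, had 4.23, 4.19 and 2.29 against 1.65, 1.84 and 2.06 (log2 fold change -0.95, standard error 0.25), so its lowest WT library was close to the highest KO library. With DESeq2 in place of edgeR, Myh11 and Acta2 were among the 11 genes called lower, and without KO library 1 edgeR called Myh11 and Cxcl12 as well.

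The pericyte genes of the same list did not separate. Pdgfrb, the receptor that recruits pericytes, had 6.83, 5.81 and 6.42 CPM in WT and 6.35, 5.74 and 5.16 in KO, and Rgs5, Abcc9 and Vtn had log2 fold changes of -0.08, -0.13 and -0.10. Kcnj8, a potassium channel of pericytes, was the highest of the list at 0.28. In all, 7 of 8 genes were negative and 3 of 8 had KO libraries all below WT, against 3.25% of coding genes, with a list median of -0.14. Ribo-seq counts, scaled by library size, gave Acta2 9.25, 6.95 and 7.06 CPM in WT and 6.46, 5.38 and 4.68 in KO, without overlap. Myh11 footprints were at 5.64, 3.68 and 5.19 CPM in WT and 3.71, 3.76 and 2.94 in KO, so these groups overlapped, and the gap seen in RNA was not as wide in footprints.

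Most endothelial genes had lower mean levels in KO, but the summed list did not separate the genotypes, since WT library 2 (75.8 CPM) lay below KO libraries 1 (84.5) and 3 (77.5), and none passed the test. Of 10 tested, 9 had a negative fold change, 5 had an unadjusted p under 0.05 and a negative sign (1.41% of coding genes), 3 had KO libraries all below WT (3.25% of coding genes), and the median was -0.51. Flt1, a VEGF receptor, had 13.2, 8.67 and 11.3 CPM in WT and 8.03, 5.24 and 7.12 in KO (log2 fold change -0.70, standard error 0.20). Tek, the angiopoietin receptor, had 4.13, 3.52 and 4.16 against 3.32, 2.48 and 2.25. The surface antigen gene Ly6c1 had 6.73, 6.06 and 6.53 against 4.84, 3.99 and 5.09, and in these 3 genes KO library 1 or 3 was nearest to WT. Cldn5, the tight junction protein, had 14.0, 7.47 and 6.77 CPM in WT and 7.39, 5.07 and 5.32 in KO, an overlap through KO library 1. Slc2a1, the glucose transporter of the blood-brain barrier, went with none of these, at 26.1, 23.4 and 38.0 CPM against 27.9, 31.5 and 33.1. The transcripts of the list are of middling length (median 3219 nt), and after the median of its own length class was taken from each gene, 10 of 10 were negative.

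Further vessel-linked genes were among the 10 coding genes of at least 1 CPM with the lowest fold changes and no overlap. Robo4, a guidance receptor of endothelium, had 2.29, 1.96 and 2.03 CPM in WT and 1.20, 0.714 and 0.722 in KO (log2 fold change -1.24, standard error 0.25). Cxcl12, a chemokine that endothelial and mural cells make, had 10.9, 9.51 and 8.61 against 6.71, 3.67 and 3.65 (-1.04, standard error 0.25). With counts summed per gene the value for Cxcl12 was -0.51. In both Robo4 and Cxcl12, KO library 1 lay between WT and the other KO libraries. Ribo-seq gave Cxcl12 7.18, 7.90 and 7.47 CPM in WT and 6.07, 4.04 and 4.55 in KO, again apart, while Robo4 footprints overlapped. Also in these 10 were Col7a1, a collagen of anchoring fibrils (2.85, 1.71 and 2.59 CPM against 1.18, 1.02 and 1.14), Hmcn1, a large extracellular matrix protein (1.59, 1.14 and 1.73 against 1.00, 0.421 and 0.507), and Gm35339 (3.36, 2.26 and 2.84 against 1.33, 1.01 and 1.76), with Rpl41, Myh11, Acta2, Alas2 and Cdhr1 as the other five. Fibroblast genes did not go with them, since 6 of 12 were positive and the median was -0.02.

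Genes of the olfactory bulb split into a group that was low in KO and a group that was not. Cdhr1, a cadherin-related protein of mitral and tufted cells, had 3.67, 1.93 and 6.32 CPM in WT and 1.72, 1.63 and 1.53 in KO (log2 fold change -1.29, standard error 0.38). Omp, which marks mature olfactory sensory neurons, whose axons end in the bulb, had 0.892, 0.530 and 1.28 CPM against 0.129, 0.179 and 0.253 (-2.29, standard error 0.42). Doc2g, a protein with C2 domains, had 5.76, 3.58 and 7.15 against 2.30, 3.27 and 2.88, and Shisa3, a regulator of receptor trafficking, had 0.606, 0.541 and 1.28 against 0.364, 0.332 and 0.329. In each of these 4 genes WT library 3 was highest, WT library 2 was lowest of the WT libraries, and the KO libraries were close together below them. S100a5, another gene of olfactory sensory neurons, outside the list and named after its values were seen, had 1.07, 0.424 and 1.27 CPM in WT and 0.0531, 0.0510 and 0 in KO. With DESeq2, Omp and S100a5 were among the 11 genes called lower.

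The other 5 genes of this list had no such gap. Eomes, a transcription factor of mitral cells, had 3.71, 3.01 and 2.95 CPM in WT and 1.98, 4.62 and 3.32 in KO, and Calb2 and Synpr, which are also used by other interneurons, had log2 fold changes of 0.28 and 0.19. In all, 4 of 9 were below WT (3.25% of coding genes), 1 of 9 was above (10.2%), and the median was -0.11. Ribo-seq put KO below WT in these 4 genes and in Nmb, a bombesin-like peptide gene, and above WT in Calb2, where 11.3% and 7.91% of coding genes lay below and above. Cdhr1 footprints were at 6.46, 4.21 and 11.3 CPM in WT and 2.25, 2.56 and 1.97 in KO, and Doc2g footprints at 1.16, 1.16 and 1.96 against 0.112, 0.307 and 0.413. Dlx1, a homeobox gene of forebrain interneurons, including those that reach the bulb, had 9.43, 8.14 and 10.5 CPM in RNA-seq of WT and 7.02, 8.00 and 7.04 of KO, and 3.37, 2.84 and 3.19 against 1.80, 2.37 and 1.84 CPM in Ribo-seq. The antisense transcript Dlx6os1 had 4.95, 4.78 and 4.77 against 3.68, 3.98 and 3.50 in RNA-seq, again with KO below WT. Dlx1 and Dlx6os1 are from the list of inhibitory neurons, not from that of the bulb. They were the only members of that list below WT (2 of 11), while 5 of 11 lay above WT. How much of the olfactory bulb each dissected brain kept is not stated, and its part in these values was not tested.

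**Figure D4:**
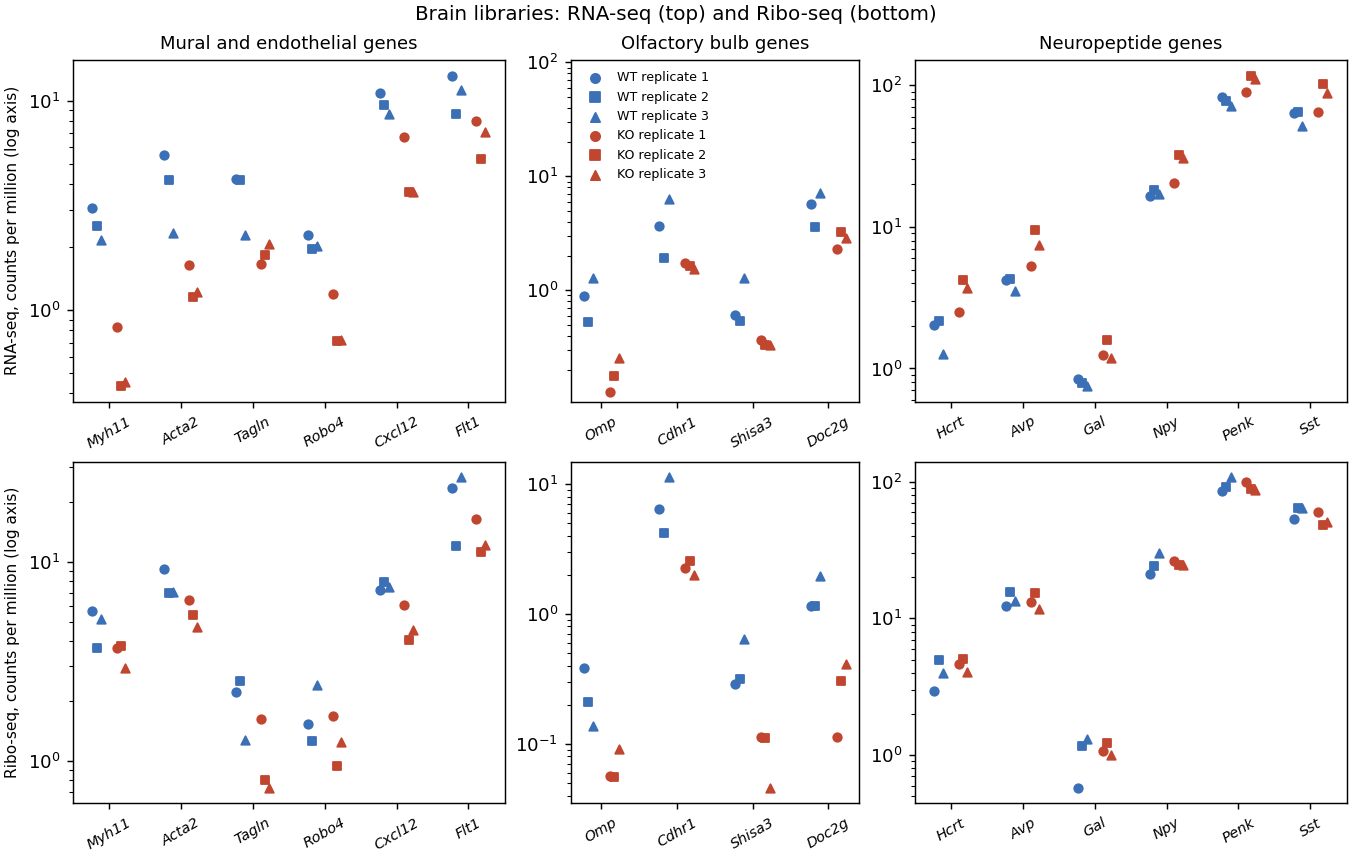
Genes of vessels, of the olfactory bulb and of neuropeptides in each brain library. Points are CPM on a log axis, RNA-seq in the top row and Ribo-seq in the bottom row, blue for WT and red for KO, with a shape for each replicate number. Vessel and olfactory bulb genes lie lower in KO in RNA-seq, as do Acta2, Cxcl12 and the 4 olfactory bulb genes in Ribo-seq, and the neuropeptide genes lie higher in KO in RNA-seq but overlap in Ribo-seq.

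Neuropeptide genes had the highest list median with the hypothalamus list, which shares members with it, and none passed the test. Of 20 tested, 18 had a positive fold change, 10 had KO libraries all above WT (10.2% of coding genes), 9 had an unadjusted p under 0.05 with a positive sign (3.59%), and the median was 0.35. Hcrt, the orexin precursor of the lateral hypothalamus, had 2.03, 2.15 and 1.27 CPM in WT and 2.50, 4.22 and 3.70 in KO (log2 fold change 0.93, standard error 0.27). Avp, the vasopressin precursor, had 4.22, 4.30 and 3.50 against 5.26, 9.53 and 7.40 (0.88, standard error 0.22), and Gal, galanin, had 0.848, 0.796 and 0.751 against 1.24, 1.58 and 1.18 (0.74, standard error 0.22). KO library 1 was nearest to WT for Hcrt and Avp and KO library 2 was highest in all 3 genes. Npy, made by cortical interneurons and the arcuate nucleus, had 16.6, 18.2 and 17.0 against 20.4, 32.0 and 30.7 (0.68, standard error 0.17). Penk and Tac1, precursors of enkephalin and of substance P in striatal neurons, had log2 fold changes of 0.45 and 0.34, and the interneuron peptides Sst and Vip 0.50 and 0.43. Oxt, the oxytocin precursor, which lies beside Avp in the genome, had 4.77, 4.78 and 3.08 CPM in WT and 3.54, 6.00 and 4.32 in KO, so it overlapped.

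Length, footprints and regional markers stood beside these values as follows. Neuropeptide transcripts are short (median 813 nt), and the shortest length class of coding genes had a median of 0.18 on the log2 scale. After the median of its own length class was taken from each gene, the list median was 0.19 and 15 of 20 were positive. Summed over the list, RNA-seq gave 327, 331 and 351 CPM in WT and 338, 491 and 452 in KO, with KO library 1 inside the WT range. Ribo-seq gave 322, 358 and 488 CPM in WT and 361, 320 and 316 in KO, and 0 of 20 genes had KO footprints all above WT while 7 of 20 had them all below, where 7.91% and 11.3% of all coding genes did. Avp footprints were at 12.3, 15.6 and 13.3 CPM in WT and 13.1, 15.2 and 11.8 in KO. Hypothalamic genes that encode no peptide gave mixed values. Nkx2-1 and Sim1, transcription factors of the hypothalamus, had log2 fold changes of 0.13 and -0.20 with overlapping groups, whereas Ecel1, a membrane peptidase, had 6.78, 5.85 and 7.05 CPM in WT and 8.43, 8.59 and 8.65 in KO. Over the 14 hypothalamus genes the median was 0.35 and 5 had KO libraries all above WT (10.2% of coding genes).

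Hormone genes of the anterior pituitary, a gland that hangs below the brain and can come away with it or stay in the skull, were set by 1 library. Gh, growth hormone, had 0.0220, 0.0530 and 528 CPM in WT and 2.88, 0.0128 and 0.849 in KO, each in the order 1 to 3. WT library 3 thus stood apart from all others, and the log2 fold change of -7.06 (standard error 2.85) became 5.03 without it. Pomc, the precursor of ACTH, made in the pituitary and in the hypothalamus, had 0.815, 1.07 and 71.1 against 2.65, 1.10 and 1.81, and its log2 fold change of -3.70 became 0.98 without that library. Lhb and Tshb, hormone subunits of gonadotrophs and thyrotrophs, were likewise highest in WT library 3, at 2.70 and 1.13 CPM. Of 9 listed genes only these 4 had enough reads to be tested, and the median was -2.98 with WT library 3 and 0.38 without it. Ribo-seq showed the same order, with Gh at 0.145, 0.842 and 583 CPM in WT and 11.6, 0.0557 and 3.54 in KO, so that in both assays the libraries numbered 3 of WT and 1 and 3 of KO held the most. Whether a brain that gave an RNA-seq library also gave the footprint library with its number is not stated.

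Blood genes were highest in WT library 2 and low in KO. Hba-a1, alpha globin, had 265, 781 and 226 CPM in WT and 124, 235 and 165 in KO (log2 fold change -1.28, standard error 0.47). KO library 2 lay above WT library 3, so the groups overlapped, and without WT library 2 the value was -0.49. Alas2, the heme synthesis enzyme of red cell precursors, had 3.07, 12.5 and 3.28 CPM against 1.86, 2.95 and 2.48, with the groups just apart, and Slc4a1, the red cell anion exchanger, had 0.154, 0.658 and 0.254 against 0.144, 0.0510 and 0.101. Summed over the list, RNA-seq gave 893, 2479 and 749 CPM in WT and 438, 869 and 596 in KO, and Ribo-seq 689, 1846 and 729 against 414, 480 and 373. Of 7 genes, 6 were negative with a median of -1.28, which was -0.39 without WT library 2. The 2 alpha globin genes and the 2 beta globin genes are near-identical pairs and share reads. The blood and endothelial lists both had negative medians. WT library 2 had the highest blood sum and the lowest endothelial sum of the WT libraries. The endothelial sums were 99.6, 75.8 and 108 CPM in WT and 84.5, 73.1 and 77.5 in KO. How much blood each brain held is not stated, and its part in these values was not tested.

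**Figure D5:**
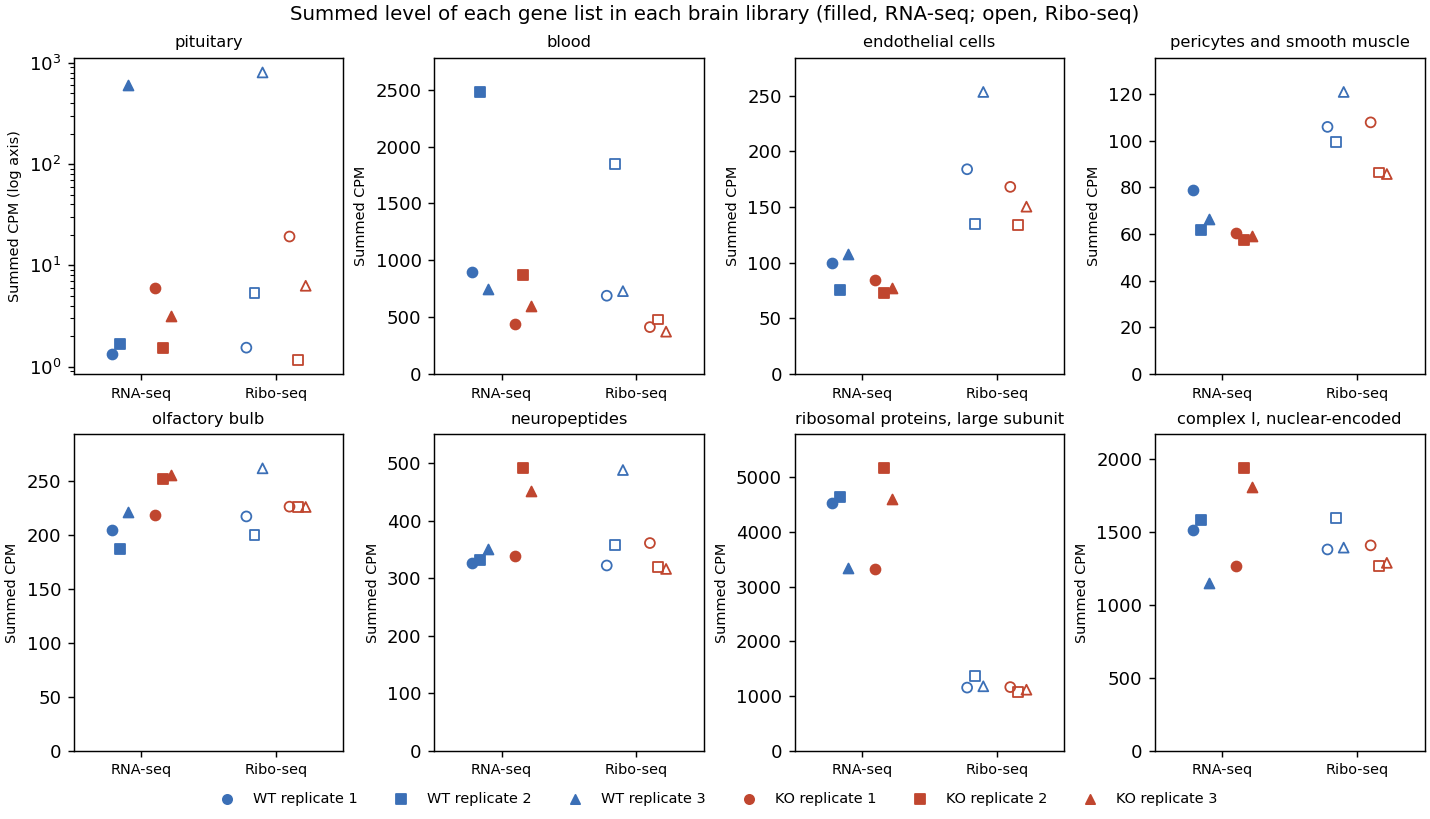
Summed level of 8 gene lists in each brain library. Filled points are RNA-seq and open points Ribo-seq, in CPM summed over the list's genes, blue for WT and red for KO, with a log axis for the pituitary list alone. WT library 3 stands apart for pituitary genes and WT library 2 for blood genes in both assays, and ribosomal protein and complex I genes are low in WT library 3 and KO library 1 in RNA-seq.

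Lists of neurons and glia were close to the median of all genes or slightly above it. Neuronal genes had a median of 0.22 with 10 of 11 positive and 2 of 11 with KO libraries all above WT (10.2% of coding genes). Rbfox3, the splicing factor known as NeuN, had 34.1, 36.9 and 36.6 CPM in WT and 39.1, 43.7 and 44.6 in KO. Astrocyte genes had a median of 0.22, with 9 of 9 positive and 5 of 9 with KO libraries all above WT (10.2% of coding genes). Gfap, the intermediate filament that rises in reactive astrocytes, had 45.9, 40.3 and 45.2 CPM in WT and 50.4, 51.4 and 54.1 in KO (log2 fold change 0.25, standard error 0.11), and its footprints overlapped at 35.1 to 40.7 CPM in WT and 32.2 to 39.2 in KO. The glutamate transporter gene Slc1a2 had 460, 428 and 420 CPM against 522, 489 and 519, and the water channel gene Aqp4 had 48.2, 46.0 and 51.4 against 62.2, 54.8 and 54.4. These gaps are 0.25 or less on the log2 scale. Microglial genes had a median of 0.20 with 4 of 12 above WT (10.2% of coding genes), led in p by Ctss, a lysosomal protease, at 17.1, 15.2 and 17.2 CPM against 21.3, 20.8 and 21.6 (0.37, standard error 0.10). Tmem119 and P2ry12, markers of resting microglia, overlapped.

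Myelin genes gave a median of 0.15 with 2 of 13 above WT, near the 10.2% of all coding genes. Mbp, myelin basic protein, had 907, 777 and 728 CPM in WT and 664, 922 and 999 in KO, an overlap. Oligodendrocyte precursors had a median of 0.16 with 1 of 9 above WT, and ependymal cells 0.16 with 2 of 10. Excitatory neurons had 0.15 with 2 of 9, and newborn or dividing cells 0.18 with 1 of 8. In these lists 0 genes lay below WT. Such small counts are not set apart from the shares of all coding genes (10.2% above, 3.25% below). Inhibitory neurons were mixed, with 5 of 11 above WT (10.2% of coding genes), among them Sst, Vip and Npy, and 2 of 11 below (3.25%), Dlx1 and Dlx6os1. Gad1, which makes GABA, had 101, 88.0 and 95.5 CPM against 87.7, 101 and 110.

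Other regional lists had medians of -0.25 to 0.30. Striatal genes had a median of 0.22 with 4 of 14 above WT (10.2% of coding genes), the 3 peptide genes Penk, Tac1 and Pdyn and the dopamine receptor gene Drd1 (7.65, 7.95 and 7.16 CPM in WT and 8.60, 9.62 and 9.23 in KO). Cortical genes had a median of 0.03 with 2 of 10 above WT (10.2% of coding genes) and 0 below. Lamp5, a protein of upper-layer neurons and interneurons, had 45.2, 43.3 and 42.4 CPM against 51.2, 60.6 and 58.8. Tbr1, a transcription factor of cortical neurons, had a log2 fold change of 0.15. The extremes of the list were Cux1 at -0.54 and Foxp1 at 0.46. Hippocampal genes had a median of 0.20 with 3 of 11 above WT (10.2%), cerebellar genes 0.13 with 1 of 15, and thalamic genes -0.03 with 0 of 10. Hindbrain and spinal cord genes had a median of 0.30 and 0 of 11 separating the genotypes. Hoxb5, which is expressed behind the hindbrain border, had 1.75, 0.520 and 0.589 CPM in WT and 1.77, 1.31 and 1.75 in KO, so that WT libraries 2 and 3 held less of it than the other four. Genes of the monoamine nuclei had a median of 0.12, skeletal muscle genes of 0.21 (5 of 8 tested) and pineal and retinal genes of -0.25 (3 of 8 tested). Choroid plexus genes had a median of 0.09, and Ttr, the transthyretin that this tissue secretes, had 317, 336 and 280 CPM against 339, 411 and 414.

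Of the synaptic lists, vesicle release genes had a median of 0.21 with 5 of 16 above WT (10.2% of coding genes). Among them was Syp, synaptophysin, at 439, 442 and 464 CPM in WT and 514, 617 and 605 in KO. Its log2 fold change was 0.37 (standard error 0.13), or 0.16 with counts summed per gene. Another was Sv2a, a vesicle glycoprotein, at 132, 114 and 135 CPM against 149, 162 and 171. Unc13a, a priming factor with a long transcript, had the lowest value of the list, with 27.7, 22.9 and 33.6 against 23.1, 18.2 and 21.5. Ionotropic glutamate receptors had a median of 0.13 and GABA-A receptors of 0.11. Gabrb2, a GABA-A subunit, had one of the largest spreads over the 6 libraries, with 1.16, 1.26 and 3.64 CPM in WT and 3.44, 0.332 and 0.443 in KO, high in WT library 3 and KO library 1. Grm5, a metabotropic glutamate receptor, followed the same order at 2.77, 2.38 and 6.45 against 6.97, 1.17 and 1.52. In Ribo-seq, Gabrb2 varied far less, from 86.9 to 115 CPM in WT and 103 to 108 in KO.

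Genes of very large proteins were on the low side. Of 20 such genes, 18 had a negative fold change, 4 had KO libraries all below WT (3.25% of coding genes) and the median was -0.14. After the median of the length class was taken off it was -0.16. The longest class has a median length of 8213 nt and this list one of 16116 nt, so that step does not match these genes for length. Ahnak, a giant scaffold protein, had 10.7, 9.87 and 12.4 CPM in WT and 8.67, 6.89 and 7.55 in KO (log2 fold change -0.51, standard error 0.14). Its Ribo-seq values were 35.2, 34.3 and 45.5 against 53.5, 48.3 and 43.2, which is not lower. Syne2, a nuclear envelope spectrin-repeat protein, had 7.22, 5.83 and 6.81 CPM against 5.48, 5.00 and 5.19 in RNA-seq, Macf1, a cytoskeletal linker, 89.8, 74.9 and 78.7 against 69.9, 64.2 and 64.5, and Kmt2d, a histone methyltransferase, 41.2, 34.5 and 42.4 against 33.8, 29.0 and 32.0. Dync1h1, the dynein heavy chain, and Huwe1, a giant ubiquitin ligase, overlapped at -0.11 and -0.07, and Ttn, titin, which the brain hardly expresses, was at 0.551 CPM or less in every library.

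Genes of respiratory complex I shared a sign without separating the genotypes in RNA-seq. All 36 nuclear-encoded subunit genes had a positive fold change, with a median of 0.25, yet 0 of 36 had KO libraries all above WT. Ndufb10 had 42.8, 44.6 and 35.7 CPM in WT and 39.3, 62.2 and 56.4 in KO, and KO libraries 2 and 3 were high and KO library 1 within the WT range, as for the list sum (1518, 1586 and 1153 CPM in WT, 1267, 1938 and 1807 in KO). These transcripts are short (median 868 nt), and after the length class median was taken off the median was 0.06. Their KO footprints in Ribo-seq were all below WT in 13 of 36 and all above in 3 of 36 (11.3% and 7.91% of coding genes). Mitochondrially encoded genes had a median of -0.04 with 11 of 13 negative and 0 separating. Clock genes (median 0.07, 0 of 18 separating), glucocorticoid-responsive genes (0.06, 0 of 15) and interferon-stimulated genes (0.16, 3 of 14 above WT, against 10.2% of coding genes) stayed near the median of all genes. Dbp, a clock output gene that cycles over the day, had 17.0, 17.6 and 28.9 CPM in WT and 25.5, 35.0 and 28.5 in KO, and H2-D1, a class I histocompatibility gene, had 19.5, 19.9 and 20.7 against 24.6, 24.4 and 24.3, with the KO libraries close together above WT.

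The other coding genes with the highest fold changes and no overlap were in no list. Xlr3b and Xlr3a, a near-identical pair of X-linked lymphocyte-regulated genes that can share reads, had log2 fold changes of 1.11 and 0.99, and Xlr3b had 2.97, 1.54 and 5.00 CPM in WT and 5.25, 9.13 and 6.22 in KO, with WT library 3 just under KO library 1. Tcap, a sarcomere cap protein, had 0.892, 0.509 and 1.00 CPM against 1.36, 1.77 and 1.46. H2-Eb1, a class II histocompatibility gene of antigen-presenting cells, had 0.705, 0.711 and 0.873 against 1.26, 1.34 and 1.18, and its groups were clearly apart. Apol8, an apolipoprotein L gene, and Dnali1, a dynein light intermediate chain of cilia, had log2 fold changes of 0.72 and 0.70, with standard errors of 0.20 and 0.26.

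Among noncoding genes, the highest fold change without overlap was at Mir6236, annotated as a microRNA precursor of 123 nt (chromosome 9, plus strand, 110281287 to 110281409). It had 2.79, 2.63 and 2.24 CPM in WT and 6.00, 6.83 and 5.30 in KO, so that the lowest KO library lay above the highest WT library with room to spare (log2 fold change 1.24, standard error 0.16, adjusted p = 0.325 from edgeR). It was called higher with DESeq2 and when 1 transcript per gene was fitted alone. Poly(A)-selected reads at this locus do not measure a mature microRNA, and in Ribo-seq the locus had 8.68, 4.32 and 2.05 CPM in WT and 4.72, 1.70 and 1.33 in KO. AC102496.1, a long intergenic noncoding RNA, had a log2 fold change of 0.84 (standard error 0.24), and Gm47305, annotated as a microRNA of 70 nt, had 7.94, 7.72 and 6.15 CPM against 13.2, 15.5 and 9.82 (0.82, standard error 0.19). The 3 lowest fold changes without overlap among noncoding genes were Gm10076, Gm10736 and Gm10180.

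Order of the genotypes in RNA-seq and in Ribo-seq coincided for a minority of coding genes. Of the 512 genes with KO libraries all below WT in RNA-seq, 78 were also all below in Ribo-seq, which is 15.2% of the former and 4.39% of the 1777 genes below in Ribo-seq (11.3% of coding genes). Of the 1604 above WT in RNA-seq, 241 were also above in Ribo-seq, 15.0% of the former and 19.4% of the 1244 above in Ribo-seq (7.91%). Rpl41, Cdhr1, Omp, Doc2g, Shisa3, Acta2 and Cxcl12 are among the 78. The Ribo-seq libraries held 9498663 to 35881929 counts, were scaled by library size alone and were not tested here.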

How the data were processed

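The authors extracted brain RNA, selected poly(A) RNA, made directional libraries, trimmed reads, discarded rRNA, mapped the rest to the mouse genome by STAR (multi-mapping allowed) and counted with featureCounts. The strand setting is not given in the sources used here, so antisense partners cannot be separated. They deposited raw counts per transcript without normalization (of these columns, 6 of brain RNA-seq and 6 of brain Ribo-seq were used; a second table with 28 columns of human transcripts under mouse titles was not used).

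Transcripts were joined to GENCODE M21 (GRCm38); 141374 of 142604 matched, and the 1230 others stayed in the fit. KO and WT were compared by edgeR's quasi-likelihood test (filterByExpr, TMM, genotype as the only term, Benjamini-Hochberg over 89237 transcripts, threshold 0.05). RNA CPM use TMM-scaled library sizes and Ribo-seq CPM library sizes. Log2 deviations used a pseudocount of 0.5 CPM. Each standard error was derived as the absolute log2 fold change divided by the square root of the test's F statistic. It is therefore approximate and adds nothing to the p-value. With 3 against 3 libraries an exact permutation test cannot go below p = 0.1 and was not used.

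Genes and the 46 lists were chosen with earlier results of these data known. Named were Rpl41, its 5 neighbours per side and called genes; the 10 largest rises and falls without overlap and the 10 largest spreads among coding genes of at least 1 CPM; the 3 largest rises and falls among noncoding genes; in each list the extremes and the first 3 members; and Rps27l. Other list members named in the text, and S100a5, were picked after their values were seen. Every listed symbol was in the table, but some had too few reads to be tested. Some list members are not reported here by name.

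Alternatives were DESeq2, library size alone, 2 other count filters, 1 transcript per gene, counts summed per gene, a replicate block, limma voom with quality weights, and each library left out in turn. The fit was run on simulated counts with known changes, where it called most transcripts given the larger change and few given the smaller one. Each simulated transcript was drawn independently from its own mean and spread. The differences between libraries that crossed the genotypes were left out, so this outcome does not give the power in these data. Versions were DESeq2 1.42.0, edgeR 4.0.16, data.table (1.17.8) and limma 3.58.1 under R 4.3.3, and matplotlib 3.10.9, pandas 2.3.3 and numpy 2.4.6 under Python 3.11.15.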

Additional observations from a re-analysis of the deposited data

How the results depend on the processing

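The count of brain RNA calls (12 transcripts, of which 0 higher and 12 lower in KO) was 23 with DESeq2 (1 higher, 22 lower), 6 with 1 transcript per gene (1 higher, 5 lower), 5 with counts summed per gene (0 higher, 5 lower), 171 with limma voom and quality weights (95 higher, 76 lower) and 0 with at least 10 counts in every library, a filter that removes Rpl41 and its copies. It was 11 with library size alone and 12 with no filter beyond 1 count, and 11 to 16 with 1 library left out, the highest without KO library 1. Without WT library 3 and KO library 1 together, chosen after seeing the data, 9281 were called (4128 higher, 5153 lower), and the cause was not tested. Rpl41, Gm10076, Gm10736 and Gm10180 were called under every alternative but that filter.

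The count of coding genes with KO libraries all below WT (512) was 880 with library size alone and 948 with counts summed per gene. With the replicate number as a block 11 transcripts were called, and Gm3699 was lost, as it was with library size alone and without WT library 1 or 2. Deviations of same-numbered WT and KO libraries from their genotype's mean correlated at -0.42, 0.45 and -0.33, and not every library correlated best with its own number. Such values cannot show whether the numbers stand for a pairing, since libraries also differ along other axes, and the labels do not state one.

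Of 3667 values of named transcripts under alternatives, 0 calls reversed, 4 were lost, 106 were gained and 206 uncalled values took the other sign. Of 690 list medians, 46 took the other sign. The median standard error of a coding gene's log2 fold change was 0.16.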
